A study of Mus musculus with 4 samples.

Results

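The MHC class II genes described here are 7 genes chosen by name, among 26172 genes listed in either of 2 single-cell libraries: H2-Aa, H2-Ab1, H2-Eb1, Cd74, Ciita, H2-DMa and H2-DMb1. All 7 had counts in both libraries. The cells came from MC38 tumours, which form from a mouse colon carcinoma line, grown without treatment in wild-type mice and in FOXP3 humanized mice. Mice were 10 weeks old at inoculation and tumours were taken on day 20. Immune cells were enriched on Percoll, a density gradient, and captured in droplets. Each genotype had 1 cDNA library (n = 1 per genotype), how many mice went into each is not given in the sources used here, and genotype cannot be told apart from library or mouse. Which part of Foxp3 is humanized is also not given. The question asked of the 7 genes is whether few cells or many carry them.

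Class II molecules display peptides from engulfed or internal proteins to CD4 T cells. H2-Aa and H2-Ab1 encode the alpha and beta chains of the I-A molecule and H2-Eb1 the beta chain of I-E. Cd74 encodes the invariant chain, which guides newly made class II molecules and fills their groove until H2-DM, the product of H2-DMa and H2-DMb1, exchanges it for peptide. Ciita encodes the coactivator that switches these genes on. Dendritic cells and B cells express them constantly, and interferon gamma induces them in many other cell types.

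Counts are unique molecular identifiers (UMIs), so each counted molecule is scored once, and a barcode stands for the content of a droplet. Levels are given as CPM, the UMIs of a gene per 1000000 UMIs of all genes in the same barcodes. Deep barcodes held 5000 or more UMIs and no UMI of Cd3e, Cd3d or Cd3g, the CD3 genes of T cells. There were 6718 of them among 7691 wild-type barcodes (median 16864 UMIs) and 9702 among 11087 humanized barcodes (median 12521). Shallow barcodes, under 5000 UMIs, numbered 873 (median 2590) and 1193 (median 2766), of which 96 and 155 had a CD3 UMI. The samples are labelled immune cells, but Ptprc, the gene of the leukocyte surface protein CD45, gave 19 UMIs over all wild-type deep barcodes and 38 over all humanized ones. The defining leukocyte gene was thus nearly absent from the deep class as a whole, which held most of the class II UMIs. Some single barcodes with many class II UMIs did have it, as given below. The 2 libraries shared 1551 barcode names, which are running numbers rather than sequences.

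The promoters of class II genes carry short boxes, named X and Y, to which the factors that recruit CIITA bind. Stretches of 150 bases (170 to 21 bases before the transcription start, gene strand, RefSeq, build GRCm38.p6) are shown for H2-Aa, H2-Eb1 and H2-DMb1, because the first pair were found together in few barcodes while the third was found in many. Capitals mark ATTGG (the Y box core), AACNGATG (the X box core) and TGACGTCA (a cyclic AMP response element), each searched on both strands, with CCAAT the Y box core on the other strand.
H2-Aa, chr17:34287844-34287993, minus strand: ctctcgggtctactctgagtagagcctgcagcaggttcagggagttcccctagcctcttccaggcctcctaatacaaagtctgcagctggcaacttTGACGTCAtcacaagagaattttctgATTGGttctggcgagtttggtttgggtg
H2-Eb1, chr17:34305697-34305846, plus strand: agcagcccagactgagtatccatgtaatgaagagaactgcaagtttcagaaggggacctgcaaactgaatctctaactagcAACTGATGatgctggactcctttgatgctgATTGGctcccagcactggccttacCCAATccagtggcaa
H2-DMb1, chr17:34153021-34153170, plus strand: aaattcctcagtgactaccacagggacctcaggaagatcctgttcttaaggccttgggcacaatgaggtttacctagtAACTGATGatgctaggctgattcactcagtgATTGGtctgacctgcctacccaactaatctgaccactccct
The X box core began 89 bases before the start in H2-Eb1 and 92 bases before it in H2-DMb1, and the Y box core followed at 59 and 61 bases. H2-Aa had the Y box core at 48 bases, with TGACGTCA at 74 bases before the start. Over the 250 bases before each of 32851 starts in the same table, ATTGG was in 33.8% of windows, AACNGATG in 1.98% and TGACGTCA in 1.55%. The X box core followed by the Y box core within 60 bases on the gene strand was in 10 windows (0.0304%). The motifs were picked after these promoters had been read. The broadly detected H2-DMb1 and the narrowly detected H2-Eb1 thus held the same 2 motifs at nearly the same spacing. H2-DMa, not shown, had 2 windows, without the X box core in either and with 1 Y box core, 198 bases before the start. Among members, 4 of 7 had an entry in the table, and H2-Ab1, Cd74 and Ciita had none.

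H2-Aa, H2-Ab1, H2-Eb1 and Cd74 were carried by few deep barcodes. H2-Aa had 517 UMIs in the wild-type library, or 3.99 CPM (exact Poisson interval 3.66 to 4.35), in 3.23% of deep barcodes. Its humanized count was 380 UMIs (2.69 CPM, 2.43 to 2.98), in 1.42% of deep barcodes. H2-Ab1 was in 3.47% and 1.36% of deep barcodes at 4.41 and 1.83 CPM, wild-type before humanized. Both I-A chains therefore had a UMI in under 4% of deep barcodes. H2-Eb1 was in 2.92% and 1.43% at 4.02 and 2.34 CPM. Cd74 was in 5.84% and 3.10% at 7.50 and 4.88 CPM. All intervals are at 95% and cover counting error only, and levels are not scaled to gene length, so they are not compared between genes.

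Few barcodes also held most of what was counted. The top barcode of the wild-type library held 24.2% of its H2-Aa, 25.2% of its H2-Ab1, 20.9% of its H2-Eb1 and 23.8% of its Cd74 UMIs, and it was the same barcode for the 4 genes summed. The humanized top barcodes held 8.16%, 10.1%, 9.70% and 9.72%. Over the 4 genes, 36 of 6718 wild-type and 24 of 9702 humanized deep barcodes were enough to hold 50% of 2580 and 1657 UMIs. Carriers of at least 1 UMI of the 4 genes made up 10.0% (674 barcodes) and 5.31% (515). Of these carriers, 62.2% and 69.7% held a single UMI.

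Ciita, the coactivator gene, was near the limit of detection. It had 22 UMIs in 21 wild-type deep barcodes (0.313%) and 11 UMIs in 9 humanized ones (0.0928%). No humanized shallow barcode had it, 0 of 1193, which allows a share of barcodes with a Ciita UMI, not of cells that express it, of up to 0.251% (3 counts of the total). Of the 21 wild-type barcodes with Ciita, 10 had Cd74, 9 H2-Ab1, 9 H2-Eb1 and 8 H2-Aa, or 47.6%, 42.9%, 42.9% and 38.1%. Barcodes without Ciita had these genes in 5.70%, 3.34%, 2.79% and 3.12%. Of the 9 humanized ones, 2 had Cd74, 1 H2-Ab1, 3 H2-Eb1 and 3 H2-Aa, against 3.08%, 1.35%, 1.40% and 1.39% of barcodes without Ciita.

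The H2-DM genes were spread more widely. H2-DMb1 was in 49.9% of wild-type (5441 UMIs, 42.0 CPM) and 38.9% of humanized deep barcodes (5413 UMIs, 38.4 CPM), and 980 and 1127 barcodes were needed to hold 50% of its UMIs. H2-DMa was in 12.1% and 6.70% of deep barcodes, at 7.71 and 5.12 CPM. Its totals of 998 and 723 UMIs were close to those of Cd74, 971 and 689. Even so, 50% of the H2-DMa UMIs took 317 wild-type and 289 humanized barcodes, and 50% of the Cd74 UMIs took 40 and 32. At a like total, Cd74 was therefore held by fewer barcodes than H2-DMa. The counting of genes that overlap or copy each other is not described in the sources used here. H2-DMb2, a near copy of H2-DMb1, had 5 wild-type and 0 humanized deep UMIs, and reads the copies share could have been assigned to either.

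**Figure D1:**
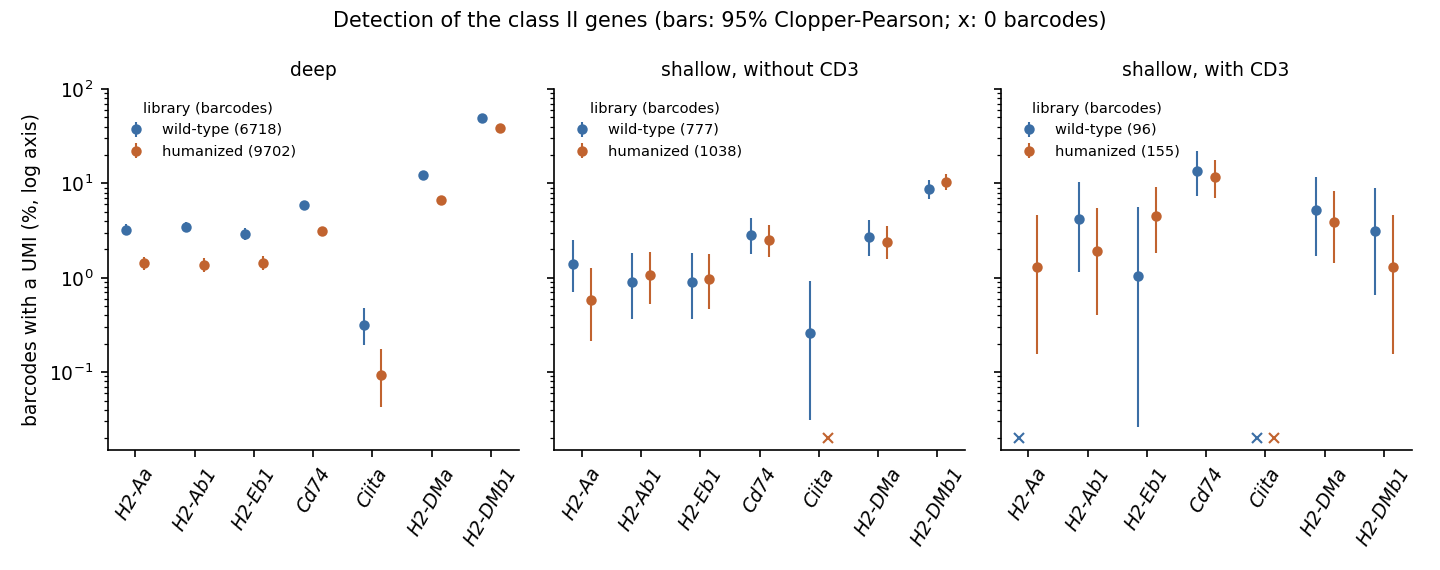
Share of barcodes with a UMI of each class II gene (percent, log axis) in deep barcodes and in shallow barcodes without and with a CD3 UMI, for the wild-type (blue) and humanized (orange) libraries. Points are shares, bars 95% Clopper-Pearson intervals, and crosses mark genes with 0 barcodes. In deep barcodes H2-DMb1 stood at 49.9% and 38.9% and the 4 genes from H2-Aa to Cd74 at 1.36 to 5.84%.

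**Figure D2:**
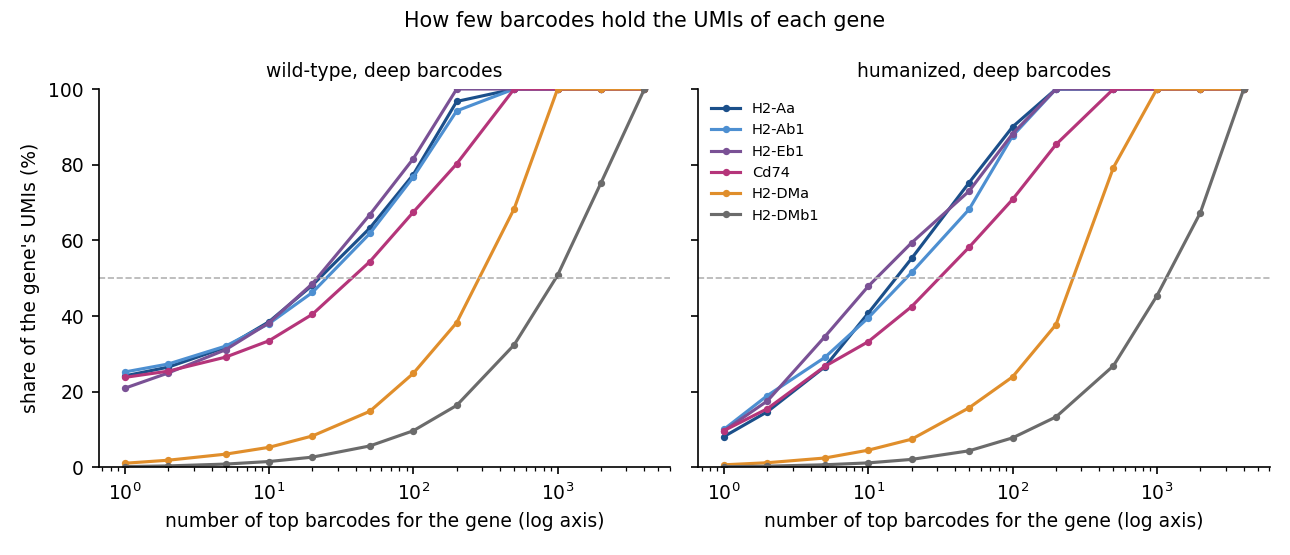
Share of the UMIs of each gene (percent) held by its top barcodes, against the number of top barcodes (log axis), over deep barcodes of each library. The lines of H2-Aa, H2-Ab1, H2-Eb1 and Cd74 cross 50% (dashed) within 40 barcodes, and that of H2-DMb1 near 1000.

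Most carriers had a UMI of only 1 of the 4 genes, 478 of 674 wild-type (70.9%) and 408 of 515 humanized carriers (79.2%). A barcode with 1 of the genes nevertheless had the others more often than a barcode without it. A wild-type deep barcode with H2-Aa also had H2-Ab1 in 43.3% of cases, against 2.14% of barcodes without H2-Aa. The humanized shares were 37.0% and 0.847%. H2-Eb1 was in 42.9% of wild-type barcodes with H2-Aa and in 1.58% of those without it, and in 38.4% and 0.899% of the humanized ones. Cd74 was in 48.4% and 4.41% (wild-type) and in 39.9% and 2.57% (humanized). H2-DMa and H2-DMb1 went with H2-Aa to a smaller degree. H2-DMa was in 30.4% of wild-type barcodes with H2-Aa and in 11.5% of those without, and H2-DMb1 in 70.0% and 49.2%. All 4 genes were present in 59 wild-type and 33 humanized deep barcodes, which held 57.2% and 53.5% of the 4-gene UMIs. Depth moves with co-detection: carriers had a median of 20464 wild-type and 14543 humanized UMIs, and barcodes without any of the 4 genes 16488 and 12437.

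A deep barcode with 10 or more UMIs of the 4 genes is called class II-high. There were 42 in the wild-type library (0.625%, Clopper-Pearson 0.451 to 0.844%) and 23 in the humanized library (0.237%, 0.150 to 0.356%). They held 52.8% and 49.5% of all 4-gene UMIs of deep barcodes. All 4 genes were present in 40 of the 42 and in 21 of the 23. With a limit of 30 UMIs the order of the libraries turned, to 4 wild-type (0.0595%) and 10 humanized barcodes (0.103%). At these limits the number of class II-high barcodes was higher in the wild-type library and the number of the very highest was not. The limits are raw UMIs, and wild-type deep barcodes were deeper (median 16864 against 12521). Without the Tyrobp barcodes described next, the shares between 5000 and 10000 UMIs were 0.151% (0.0183 to 0.545%, wild-type) and 0.206% (0.0830 to 0.425%, humanized). They were 0.531% and 0.114% up to 20000, 0.874% and 0.403% up to 40000, and 1.42% and 0% above that.

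Class II-high barcodes were of 2 kinds by Tyrobp, which encodes an adaptor of myeloid and natural killer cell receptors. This split was chosen after the values had been seen. A single wild-type barcode and 4 humanized ones had Tyrobp UMIs. The wild-type barcode held 609 UMIs of the 4 genes among 13348 in all (125 of H2-Aa, 144 of H2-Ab1, 109 of H2-Eb1 and 231 of Cd74), 23.6% of the library's deep total. Beside them stood 21 UMIs of Tyrobp, 17 of Cd52 and 2 of Flt3, a receptor of dendritic cell precursors and dendritic cells. Of other dendritic markers, Xcr1 and Ccr7 had 0 UMIs and Clec9a 1, and Ptprc had 0. The humanized barcodes held 141, 129, 71 and 67 UMIs of the 4 genes, together 24.6% of that library's deep total. Ptprc was in all 4 of them (7 UMIs, 224 CPM). The barcodes with 141 and 129 had 17 and 5 UMIs of Il1b, the sole gene of the monocyte list that was read per barcode. The barcode with 71 also had 23 UMIs of Ccr7, a chemokine receptor of migrating dendritic cells, and 2 of Flt3, but 0 of Xcr1 and Clec9a. The barcode with 67 had 47 UMIs of Lyz2, a lysozyme of macrophages and neutrophils, and 12 of C1qa, a complement gene of macrophages, but 0 of Csf1r, on the same myeloid list. The barcodes with 141 and 129 had 0 UMIs of Lyz2, C1qa and Csf1r. All 5 also had Fcer1g, a further myeloid adaptor gene, and they had the 5 highest 4-gene totals of any deep barcode. They were not uniform in a set of genes, picked from these data, that were higher in deep barcodes than in shallow ones with CD3. The barcode with 129 had this set at 82.4% of the median of deep barcodes with none of the 4 genes. The others had it at 20.2 to 59.9%. A list of 24 genes of the interferon gamma response summed to 2547 CPM (1764 to 3559) in the wild-type barcode and 1437 CPM (1048 to 1923) in the humanized ones, against 429.7 and 369 CPM in deep barcodes with neither Tyrobp nor any of the 4 genes. These sums rest on 34 and 45 UMIs. Gbp2, on the list, had 0 UMIs in the wild-type barcode and 4 in the humanized ones. All 161 UMIs of Cxcl10, also on the list, in class II-high deep barcodes were in those without Tyrobp. Tyrobp did not by itself mark class II: 40 further wild-type deep barcodes had Tyrobp, up to 60 UMIs, and held at most 1 UMI of the 4 genes each.

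The other class II-high barcodes, 41 wild-type and 19 humanized, had no Tyrobp UMI. They held 10 to 53 UMIs of the 4 genes each (median 16) and 10 to 59 (median 17), together 29.1% and 24.9% of the deep totals. Ptprc, Fcer1g, Spi1, Ctss, Lyz2 and Cd79a, markers of leukocytes, myeloid cells and B cells, had 0 UMIs in all 60 barcodes. A count of 0 allows up to 2.84 CPM over the 1055043 wild-type UMIs and 10.1 CPM over the 297834 humanized UMIs, whereas Ctss stood at 450 and 607 CPM in the barcodes with Tyrobp. Laptm5 and Cd52 had 1 UMI each in the wild-type set, and Coro1a 1 UMI in the humanized set. In deep barcodes with neither Tyrobp nor any of the 4 genes these markers were near 0 as well, for example Ctss at 0.239 and 0.220 CPM and Ptprc at 0.0442 and 0.220 CPM. Of the 10 leukocyte markers, Arhgdib was broadly detected (136 and 124 CPM wild-type, 185 and 129.97 CPM humanized), and the other 9 summed to 8.53 CPM (3.90 to 16.2) against 6.75 CPM in the wild-type and to 13.4 CPM (3.66 to 34.4) against 5.70 CPM in the humanized library. In the barcodes with Tyrobp these 9 summed to 4270.3 and 2427 CPM. Myeloid markers summed to 3.79 CPM (1.03 to 9.71) against 5.92 CPM in the wild-type library and to 6.72 CPM (0.813 to 24.3) against 5.69 CPM in the humanized library. About as many of the class II UMIs were thus in class II-high barcodes without Tyrobp as in the few with it.

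**Figure D3:**
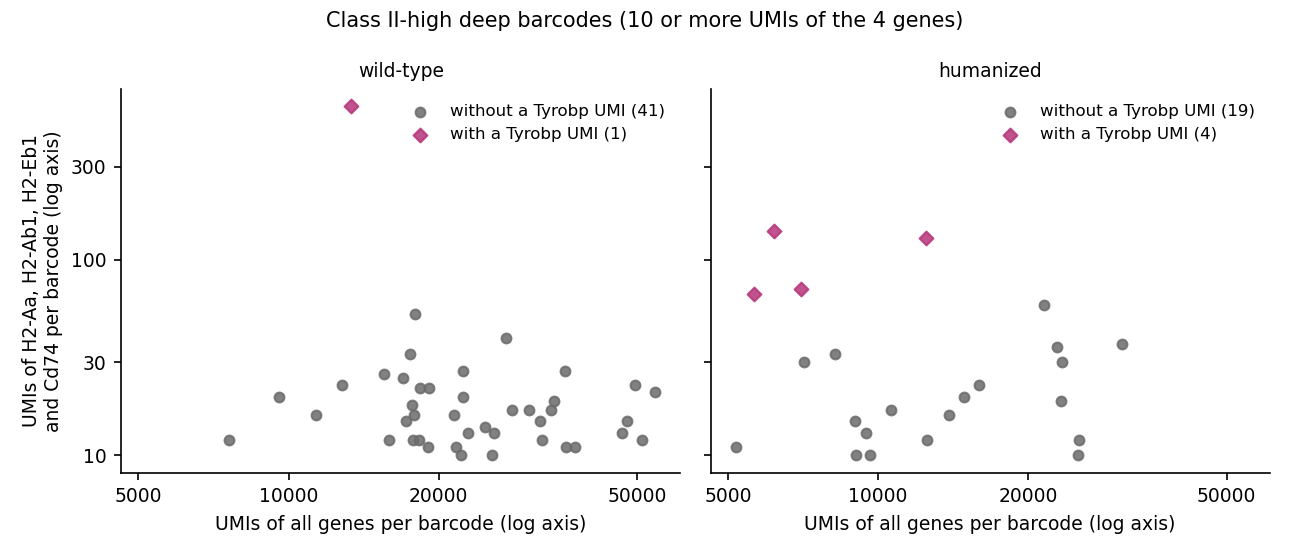
Class II-high deep barcodes of each library, with UMIs of all genes (horizontal, log axis) against UMIs of H2-Aa, H2-Ab1, H2-Eb1 and Cd74 summed (vertical, log axis); each point is a barcode, and diamonds mark those with a Tyrobp UMI. The diamonds lie at 609 (wild-type) and 67 to 141 (humanized), the circles at 10 to 59.

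In the barcodes without Tyrobp, genes of the interferon gamma response were high along with class II. Against deep barcodes with none of the 4 genes, 18 of 24 genes of the response were at least 2-fold higher, with an interval excluding no difference, in each library, and 0 were lower. Of all genes tested, 2.49% were called higher and 0.718% lower in the wild-type library, and 2.64% and 0.516% in the humanized library. The same 16 genes were called in both, 88.9% of each list of calls. The median log2 difference was 2.48 for the list and 0.22 for all tested genes in the wild-type library, and 3.01 and 0.52 in the humanized library. Because class II UMIs chose the barcodes, these are descriptions of 1 library each.

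Gbp2, a guanylate-binding protein of antimicrobial defence, was at 180 CPM in class II-high wild-type barcodes and 8.23 CPM in those with none of the 4 genes, and at 295 and 10.3 CPM in the humanized library. The values that follow are in the same order. Cxcl10, a T cell attracting chemokine, was at 65.4 and 10.5 CPM (wild-type) and at 309 and 6.23 CPM (humanized). Psmb8, an immunoproteasome subunit, was at 447 and 102 CPM and at 514 and 70.0 CPM. The direction was the same in both libraries for these genes. Of the MHC class I list, which shares 4 genes with the first, 10 of 13 tested genes were higher in the wild-type and 9 of 13 in the humanized library. H2-K1, a class I heavy chain, was at 3434 and 1637 CPM and at 2995 and 1359 CPM. Tap1, a peptide transporter, was at 123 and 31.0 CPM and at 138 and 28.2 CPM. B2m, the light chain of class I, was at 1917 and 1401 CPM and at 1659 and 1191 CPM, and was not called.

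The gradient was also seen in barcodes with fewer than 10 UMIs. Summed over the interferon list in wild-type deep barcodes without Tyrobp, the level was 429.7 CPM at 0 UMIs of the 4 genes, 571 CPM at 1 UMI, 839 CPM at 2, 1164 CPM at 3 to 9 and 1792 CPM at 10 or more. The humanized levels were 369, 514, 816, 1133 and 2233 CPM. Even barcodes with a single class II UMI therefore had a higher interferon list level than those with none, by more than the counting error. Over all deep barcodes, those with 1 UMI of the 4 genes also had a higher median depth, 20712 UMIs against 16488 in the wild-type and 15173 against 12437 in the humanized library, and depth was not matched in this comparison. Read from the other side, 7.94% of wild-type deep barcodes with neither a Tyrobp nor a Gbp2 UMI carried any of the 4 genes (477 of 6009), as did 20.99% of those with 1 Gbp2 UMI and 56.0% of those with 5 or more (47 of 84). The humanized shares were 4.33%, 8.62% and 37.7%. Depth was not matched here either: the medians of these groups were 16495, 21148 and 23846 UMIs (wild-type) and 12431, 13989 and 16032 UMIs (humanized). Class II-high barcodes were 15.5% and 7.55% of those with 5 or more Gbp2 UMIs, so most barcodes with much Gbp2 were not class II-high.

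**Figure D4:**
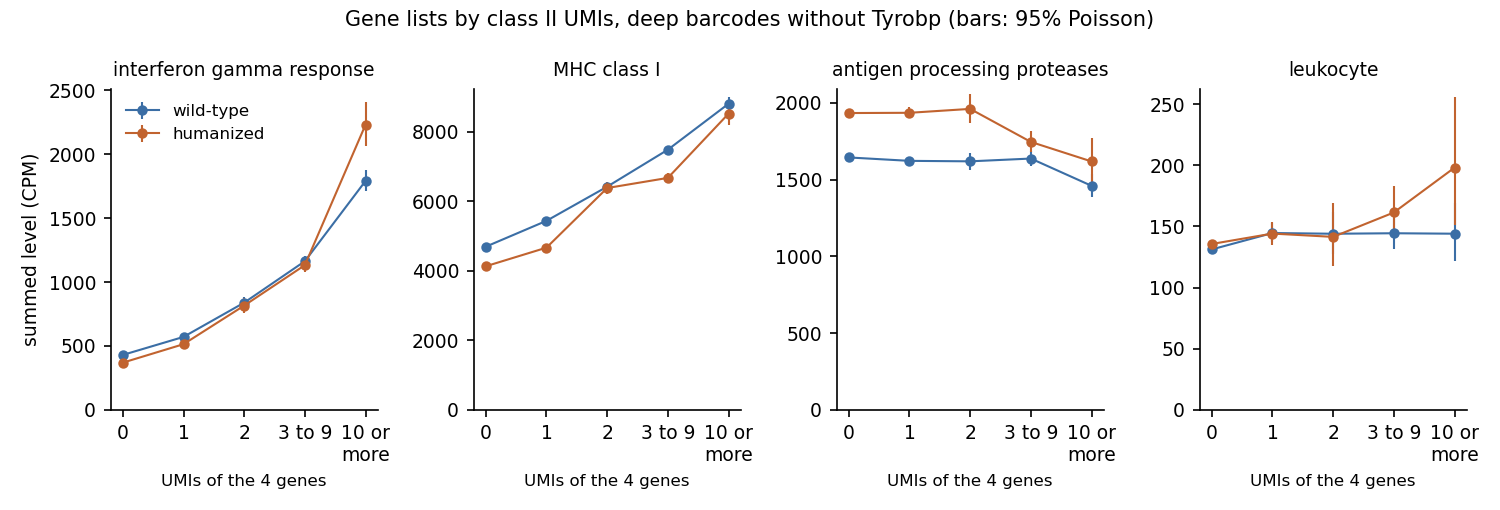
Summed level (CPM) of 4 gene lists in deep barcodes without Tyrobp, grouped by their UMIs of the 4 class II genes, for each library; bars are 95% Poisson intervals. The interferon gamma list goes from 429.7 to 1792 CPM in the wild-type and from 369 to 2233 CPM in the humanized library, while the protease list goes from 1644 to 1460 CPM and from 1934 to 1618 CPM. Most of the protease level is the single gene Ctsl, which goes from 1096 to 922 CPM and from 1311 to 964 CPM.

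All 6 members with enough counts were called higher in class II-high barcodes without Tyrobp in each library, but the UMIs of 4 of them chose those barcodes and only the H2-DM genes are independent of the choice. H2-DMa was at 49.3 CPM in wild-type class II-high barcodes without Tyrobp and at 6.89 CPM in those with none of the 4 genes, a log2 difference of 2.84 (2.41 to 3.25). The humanized levels were 60.4 and 4.61 CPM (3.71, 2.95 to 4.38). H2-DMb1 was at 92.9 and 40.4 CPM (1.20, 0.90 to 1.49) and at 181 and 37.3 CPM (2.28, 1.87 to 2.67). The difference was larger for H2-DMa than for H2-DMb1 in each library. Ciita had 4 UMIs in these 41 wild-type barcodes and 1 UMI in the 19 humanized ones, too few to be tested. None of the 8 tested genes among the other class II genes was called in either library. Of these, Rfx5, Rfxap and Rfxank encode the complex that binds the X box, and Nfya, Nfyb and Nfyc the factor that binds the Y box. Rfxap, for example, was at 54.0 and 45.3 CPM in the wild-type and 43.6 and 43.0 CPM in the humanized library, and Nfyb at 40.8 and 37.7 CPM and at 26.9 and 32.0 CPM. Rfx5 was at 4.74 and 2.32 CPM from 5 class II-high UMIs and at 6.72 and 1.74 CPM from 2. Creb1, which can bind the site next to the X box, was at 18.0 and 19.7 CPM and at 20.1 and 18.1 CPM. Marchf8, a ubiquitin ligase, was at 7.58 and 14.3 CPM and at 6.72 and 11.7 CPM. Marchf1, which removes class II from the surface, H2-Oa and H2-Ob, which encode the inhibitor of H2-DM, and H2-DMb2 were too rare for this comparison, with 8, 6, 0 and 5 UMIs over all wild-type and 5, 3, 2 and 0 over all humanized deep barcodes. Of the endosomal proteases, 0 of 8 were called in either library, and Ctsl, which degrades the invariant chain in some cells, was at 922 and 1096 CPM and at 964 and 1311 CPM. Ifi30, on the same list, was higher but under 2-fold, at log2 0.87 (0.49 to 1.23) and 0.96 (0.40 to 1.47). Sppl2a was higher in the humanized library (0.78, 0.002 to 1.46) and Ctsd lower in the wild-type library (-0.35, -0.62 to -0.08). No other interval on the list excluded 0 besides those of Ctsl.

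Markers of the stroma and the carcinoma line were read in the same comparison. There, 2.49% of all tested genes were called higher and 0.718% lower in the wild-type library, and 2.64% and 0.516% in the humanized library. Of the fibroblast list, 1 of 6 tested genes was called in each library, the collagen gene Col1a1 at 38.9 and 7.06 CPM (wild-type) and at 131 and 11.9 CPM (humanized). Its UMIs came from 8 of 41 and 5 of 19 class II-high barcodes, and without the barcode with the most Col1a1 UMIs its level was 20.2 CPM (12.5 to 30.9) and 47.0 CPM (25.1 to 80.5). Summed, the fibroblast list was at 279 and 173 CPM and at 413 and 213 CPM, while Dcn, a matrix proteoglycan on it, was at 19.9 and 37.0 CPM and at 33.6 and 32.0 CPM. Apobec1, on the carcinoma line list, was called lower in the wild-type library, at 109 and 231 CPM, and was not called in the humanized library, at 57.1 and 88.3 CPM. It was the sole call among 4 (wild-type) and 5 (humanized) tested genes of that list. The whole carcinoma line list summed to 199 and 338 CPM and to 77.2 and 126 CPM. The part of these genes in the class II result was not tested.

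Over the 16420 deep barcodes of both libraries, the genes whose log level was most like that of the 4-gene sum were Gbp2 (Pearson r = 0.27), Ucp2, Psmb9, Psmb8, Il1b, Ctss, Tspan13, Spi1, Gbp4 and Tyrobp (r = 0.21). Without the barcodes with Tyrobp, the list was Gbp2 (r = 0.28), Psmb9, Psmb8, Gbp4, Ubd, Gbp3, Gbp7, Psmb10, Iigp1 and H2-K1 (r = 0.17). Of the first list, 4 genes are also on the second, and all of the second but Ubd are on the interferon gamma or MHC class I lists. The barcodes share libraries and depth, and these coefficients are descriptions. By fold against other deep barcodes, class II-high barcodes were led by Cd74, H2-Eb1, H2-Aa, H2-Ab1, Gbp2, Psmb8, Psmb9, Fabp5, Psmb10 and Cxcl10. Fabp5, a fatty acid-binding protein, was at 102.3 CPM against 0.171 CPM, and it was not among the 10 leading genes once barcodes with Tyrobp were left out.

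In shallow barcodes, those with CD3 included, the 4 genes were also in few, though at equal depth in more than in deep barcodes. They had 123 wild-type UMIs (52.1 CPM, 43.3 to 62.2) in 48 of 873 barcodes (5.50%) and 235 humanized UMIs (69.5 CPM, 60.9 to 78.9) in 61 of 1193 (5.11%). With every barcode thinned to 1000 UMIs, 3.78% of wild-type shallow barcodes (2.62 to 5.27%) and 1.27% of deep ones (1.01 to 1.56%) had a UMI of the 4 genes. The humanized shares were 3.10% (2.19 to 4.25%) and 1.03% (0.839 to 1.25%), so the order of shallow and deep barcodes turned against that of the unthinned shares. Deep barcodes exclude CD3, while these shallow ones include it. Thinned shallow barcodes without CD3 had a UMI in 2.57% (1.58 to 3.95%, wild-type) and 1.64% (0.957 to 2.61%, humanized). The humanized interval overlapped that of deep barcodes. Thinned shallow barcodes with CD3 had a UMI in 13.5% and 12.9%. Class II-high barcodes were 1 wild-type (0.115%, 0.00290 to 0.637%) and 4 humanized (0.335%, 0.0914 to 0.856%), and they held 27.6% and 59.1% of the 4-gene UMIs. The highest was a humanized barcode in which 93 of 1040 UMIs (8.94%) came from the 4 genes, 66 of them from Cd74. This was the largest share in any class II-high barcode of either library, and it had no Tyrobp UMI but 2 of Lyz2 and 4 of Il1b. H2-DMb1 was in 8.13% and 9.22% of shallow barcodes, at 32.6 and 35.8 CPM. H2-DMa was in 2.98% and 2.60%, at 14.4 and 10.3 CPM. Ciita had 2 UMIs in the wild-type shallow barcodes. The genes most like the 4-gene sum over 2066 shallow barcodes were Fabp5 (r = 0.35), Srgn, Ctss, Plac8, Tyrobp, Pde4b, Fcer1g, Ctsc, Il2ra and Cd52 (r = 0.24). None of these is on the interferon list, and Tyrobp, Fcer1g and Ctss are on the myeloid one.

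Cd74 was comparatively high in shallow barcodes with a CD3 UMI. It was in 13 of 96 wild-type barcodes (13.5%, 7.41 to 22.04%) at 151 CPM (100.3 to 218) and in 18 of 155 humanized ones (11.6%, 7.03 to 17.7%) at 121 CPM (84.1 to 169.7). Shallow barcodes without CD3 had it at 23.9 CPM (17.9 to 31.3) and 39.0 CPM (32.4 to 46.6). With every barcode thinned to 1000 UMIs, Cd74 was in 10 of 96 wild-type shallow barcodes with CD3 (5.11 to 18.3%; median depth 1700 UMIs before thinning) and in 0.551% of deep barcodes (5.84% before thinning). In the barcodes with CD3 the other 3 genes had few UMIs: 7 of H2-Aa, H2-Ab1 and H2-Eb1 in the wild-type library beside 28 of Cd74, and 16 beside 34 in the humanized library. Per UMI of all genes, some of the 3 were also higher than in shallow barcodes without CD3. H2-Ab1 was at 32.4 CPM (11.9 to 70.4) against 4.60 CPM (2.20 to 8.45) in the wild-type library. H2-Eb1 was at 39.3 CPM (19.6 to 70.3) against 6.77 CPM (4.19 to 10.3) in the humanized library. In the remaining pairs the intervals overlapped. Cd74 was thus 80% (63.1 to 91.6%) and 68.0% (53.3 to 80.5%) of the 4-gene UMIs there, against 37.6% (35.8 to 39.5%) and 41.6% (39.2 to 44.0%) in deep barcodes. Shallow barcodes without CD3 lay between or close by, at 59.1% (48.1 to 69.5%) and 65.4% (58.1 to 72.2%), with intervals that overlapped those with CD3. The Cd74 share was thus higher in shallow than in deep barcodes by intervals that treat the UMIs of 1 barcode as independent. In shallow barcodes without CD3, however, 1 barcode held 48.1% (wild-type) and 54.5% (humanized) of the Cd74 UMIs. Deep barcodes with a single UMI of the 4 genes had Cd74 at 46.8% (41.9 to 51.7%) and 52.4% (47.1 to 57.6%), nearer to the shallow shares. H2-DMb1 had 3 UMIs in the wild-type shallow barcodes with CD3 (16.2 CPM, 3.34 to 47.3) and 2 in the humanized ones (7.14 CPM, 0.865 to 25.8).

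Between the libraries, the summed level of the 4 genes in deep barcodes was 19.9 CPM (wild-type) and 11.7 CPM (humanized), a log2 ratio of -0.76 (exact conditional interval -0.85 to -0.67). Of all 17172 genes tested, 6.23% were called at least 2-fold lower and 0.46% higher in the humanized library, and the median over them was -0.24. Among the 7 members 2 were called lower, H2-Ab1 at -1.27 (-1.49 to -1.06) and Ciita at -1.12 (-2.32 to -0.02), and 0 higher. The median of the members was -0.62. H2-Eb1 was at -0.78, Cd74 at -0.62, H2-DMa at -0.59, H2-Aa at -0.57 and H2-DMb1 at -0.13. All 7 were therefore on the lower side, and H2-DMb1 was above the median of all genes. With 1 library per genotype no test of these differences was made. Leaving out the barcode with the most UMIs in each library brought the 4-gene ratio to -0.50, and, with the top barcode taken gene by gene, that of H2-Aa to -0.29 and that of H2-Ab1 to -1.004. Leaving out barcodes with Tyrobp gave -0.79 for the 4 genes and, for Ciita, an interval of -2.26 to 0.06, which ends its call.

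The share of carriers was lower in the humanized library in each of 4 depth classes. Among deep barcodes without Tyrobp, carriers of the 4 genes were 5.59% of wild-type and 3.98% of humanized barcodes between 5000 and 10000 UMIs, 8.84% and 4.88% up to 20000, 12.7% and 8.06% up to 40000, and 19.0% and 13.1% above that. The intervals overlapped in the lowest class (4.41 to 6.97% and 3.35 to 4.69%) and in the highest (15.0 to 23.5% and 7.98 to 20.0%). With all deep barcodes thinned to 5000 UMIs each, 4.41% of wild-type (3.93 to 4.92%) and 2.57% of humanized deep barcodes (2.26 to 2.90%) carried the 4 genes, and 19.0% and 17.6% carried H2-DMb1. Of the interferon list, 2 of 24 genes, Gbp4 and Cxcl9, were called lower in humanized deep barcodes, with a list median of -0.31. This was close to all tested genes, of which 6.23% were called lower, with a median of -0.24. Gbp2 was at 0.13 (0.04 to 0.23). Other genes differed between the deep barcodes of the libraries at the same time: 7 of 8 carcinoma line genes were called lower in the humanized library, and their part in the class II difference was not tested.

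In shallow barcodes the ratio lay on the other side, at 0.41 (0.09 to 0.74) for the 4 genes. Of 10736 genes tested there, 0.736% were called higher and 2.39% lower in the humanized library, with a median of -0.07. H2-Eb1 was the sole member called among 6 tested, higher at 1.16 (0.10 to 2.35) from 10 wild-type and 32 humanized UMIs. The call ended without the top H2-Eb1 barcode of each library, at 1.06 (-0.14 to 2.43), and in shallow barcodes without CD3, at 0.71 (-0.48 to 2.02). Cd74 was at 0.43 (0.04 to 0.84), and the intervals of H2-Aa, H2-Ab1, H2-DMa and H2-DMb1 included 0. Without the top barcode of each library the 4-gene ratio was 0.15 (-0.24 to 0.55) and that of Cd74 0.17 (-0.33 to 0.69), so neither interval excluded 0 any longer.

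**Figure D5:**
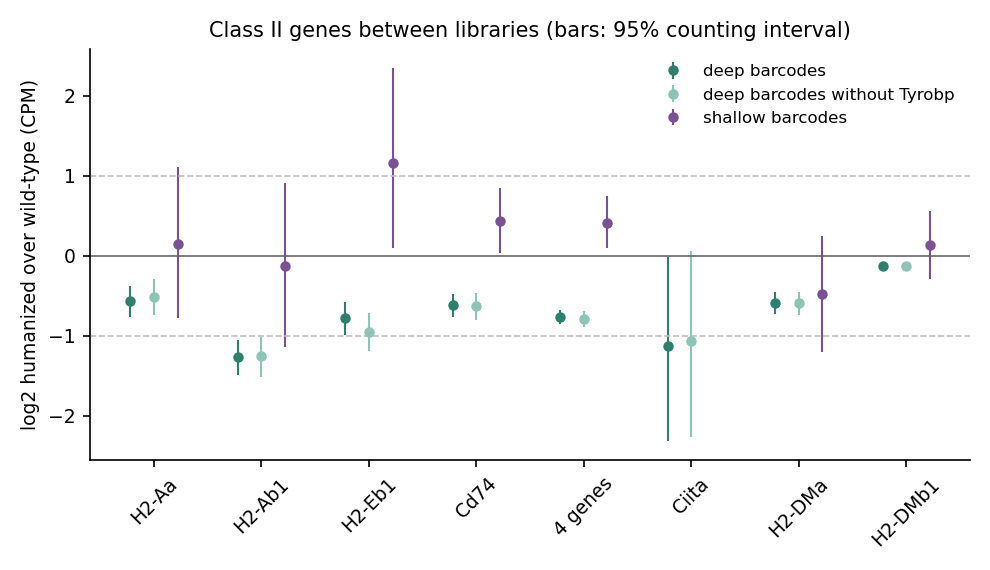
Log2 ratio of humanized over wild-type level for each class II gene and for H2-Aa, H2-Ab1, H2-Eb1 and Cd74 summed (4 genes), in deep barcodes, deep barcodes without Tyrobp and shallow barcodes. Points are ratios of summed CPM, bars 95% counting intervals, and dashed lines mark 2-fold. Deep ratios run from -1.27 (H2-Ab1) to -0.13 (H2-DMb1), and Ciita in shallow barcodes is left out for low counts.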

How the data were processed

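Per the file headers, PISA 1.0 made the matrices of whole-number UMI counts that the authors deposited, and the submitters' processing notes name the build GRCm39. Nothing in the sources used here gives the aligner, annotation, strand use or cell calling. The values come from 1 cDNA library per genotype, and the matching oligo libraries were left aside. No barcode was removed and no doublet caller was run. Counts were summed per class of barcodes in Python 3.11.15 (numpy 2.4.6, scipy 1.17.1, pandas 2.3.3) and divided by all UMIs of the class. Shares have exact Clopper-Pearson intervals, levels exact Poisson intervals and log2 ratios exact conditional intervals, at 95%, and a count of 0 was set to a floor of 3. A gene with 20 or more UMIs over both sums, listed in both libraries, was called at 2-fold with an interval excluding no difference. The rule was tried on simulated Poisson counts for the comparison of humanized with wild-type deep barcodes only. The simulated counts held no clumping of UMIs in single barcodes, and the class II-high comparison was not simulated. They therefore cannot show how the intervals behave in those cases. The genes named were the 7 members, the other class II genes, up to 4 examples per list, the 10 genes with the highest Pearson correlation (in 20 or more barcodes) and the 10 with the highest fold (pseudocount 0.5 per 10000), and further names were chosen after their values were seen. The members and lists were chosen with earlier results of these data known. Alternatives covered depth limits, CD3 and quality filters, thresholds, thinning, the gene set and the top barcode. The split by Tyrobp and thinning to 5000 UMIs were added after the data were seen.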

Additional observations from a re-analysis of the deposited data

How the results depend on the processing

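Of 89 values under other settings, 51 stayed within the 95% interval of the reported value, 38 moved outside it. None of the 4-gene ratios among them changed sign, but the order of the libraries by the share of class II-high deep barcodes turned at 30 UMIs. Shares of class II-high barcodes among deep barcodes moved with the UMI limit, to 2.59% (wild-type) and 1.04% (humanized) from 3 UMIs, 1.43% and 0.577% from 5, 0.0595% and 0.103% from 30, and 0.283% (wild-type) from 0.1% of the UMIs. Among shallow barcodes they moved to 1.49% and 1.09% from 3 UMIs, 0.0838% (humanized) from 30, and 1.60% and 1.34% from 0.1%. The share of UMIs held moved to 77.5% and 71.7% from 3 UMIs, 67.1% and 62.6% from 5, 28.5% and 38.2% from 30, and 38.2% (wild-type) from 0.1%. Thinned to 1000 UMIs, 1.27% and 1.03% of deep and 3.78% and 3.10% of shallow barcodes had a UMI of the 4 genes, and 0.119% and 0.0825% of deep barcodes had 3. Thinned to 5000, 0.464% of humanized deep barcodes had 3. Without the top barcode the share of UMIs held was 38.2% and 44.9%, the wild-type shallow share 0% and the deep log2 ratio -0.50. Without Cd74 these were, for the wild-type library, 47.6% of UMIs, 0.342% of deep and 0% of shallow barcodes, and the deep ratio was -0.86. A depth limit of 8000 UMIs gave 42.0% of UMIs (humanized) and a deep ratio of -1.09. Without Tyrobp barcodes, 38.3% and 33.2% of UMIs were held. For single members, 3 of 13 ratios moved without the top barcode, H2-Aa to -0.29, H2-Ab1 to -1.004 and Cd74 to -0.37. No paired analysis was possible because each genotype had 1 library, which also left no replicate to leave out. Depth limits Ciita most, at 22 and 11 deep UMIs, and UMIs of 1 barcode are not independent, so intervals of levels that rest on few barcodes are too narrow.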

Other observations

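Igkc, the kappa light chain constant gene of antibody-making cells, was found in many barcodes of the humanized library. It had 7021 UMIs there, of which 5129 (73.1%) were in a single deep barcode of 8913 UMIs that also held 3 UMIs of Cd74 and none of H2-Aa, H2-Ab1 or H2-Eb1. A second high barcode, with 728 Igkc UMIs, was shallow. Igkc was nevertheless in 1025 of 11087 humanized barcodes (9.25%), and in 952 deep barcodes (9.81%). It was in 5 of 7691 wild-type barcodes (0.0650%). Of the 952 humanized deep barcodes with Igkc, 68 had a UMI of the 4 class II genes (7.14%, 5.59 to 8.97%), against 447 of 8750 without Igkc (5.11%, 4.66 to 5.59%). The source of the single Igkc UMIs was not tested.

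Class II-high deep barcodes without Tyrobp were also high in Ly6c1 (1045 CPM against 350 CPM in other deep barcodes), a surface protein of several cell types, in the chemokine gene Ccl2 (502 and 154 CPM), in Ubd, a ubiquitin-like modifier (79.1 and 7.36 CPM), and in Bst2, an antiviral membrane protein (377 and 140 CPM). These genes were named after their values were seen, and both libraries were summed.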
